A study of Mus musculus with 12 samples.

Results

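The genes described here are 82 genes of 6 families of RNA-binding proteins, taken from the 25171 loci of a count table of mouse heart RNA. The genes were picked by symbol, with no pseudogene among the matches, from families chosen with earlier results of these data known. They are the 20 heterogeneous nuclear ribonucleoproteins (Hnrnp), the 11 serine/arginine-rich splicing factors (Srsf), the 3 muscleblind-like proteins (Mbnl), the 6 CUGBP Elav-like proteins (Celf), the 3 RNA-binding fox-1 homologues (Rbfox) and the 39 RNA-binding motif proteins (Rbm). All 82 are protein-coding genes of the same symbol in GENCODE M21 (GRCm38).

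Splicing regulators bind pre-mRNA and decide which exons enter the mature transcript. SR proteins mostly promote the use of an exon and hnRNPs often prevent it, while MBNL, CELF and RBFOX proteins and RBM20 and RBM24 set the muscle-specific splice forms of sarcomere and ion channel transcripts. Several of these proteins, among them hnRNP A2/B1 and MBNL1, are known to bind expanded repeat RNA. Some hnRNPs and SR proteins are found in repeat RNA foci of other repeat disorders.

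The study compared hearts that express human NOTCH2NLC with an expansion of 98 GGC repeats, the cause of neuronal intranuclear inclusion disease, with hearts of littermate controls. Heart RNA of 12 mice was sequenced, 3 in each of 4 groups, and the labels name the mice of a group as biological replicates. All mice carried the repeat at the Rosa26 locus behind a stop cassette that Cre removes. In EIIa-tg mice (written E2a in the labels) an EIIa-Cre, active from the early embryo in nearly all tissues, had removed the stop, and hearts were taken at postnatal day 30. EIIa-ctl hearts came from littermates of that age with the silent transgene and no Cre. Myh6-tg mice carried a tamoxifen-inducible Cre driven by the cardiomyocyte promoter Myh6, were given tamoxifen at 75 mg/kg in 3 injections from postnatal day 60, and were taken at day 90. Myh6-ctl mice are labelled with the same genotype and age and were given corn oil. Tamoxifen, the presence and activity of Cre and the transgene cannot be told apart in that comparison.

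Libraries held 38343106 to 50969834 counts, of which the 82 genes took 0.359% to 0.699% and mitochondrial transcripts 15.5% to 38.3%, the latter lowest in Myh6-tg. Sqstm1, which encodes the inclusion protein p62, rose in both models (log2 fold change 1.52 ± 0.18 in EIIa-tg and 1.54 ± 0.31 in Myh6-tg, edgeR adjusted p = 0.013 and 0.017). Esr1 stood at 1031 to 2331 CPM (counts scaled to the normalised library size) in Myh6-ctl and at 0.408 to 2.52 in the other 9 hearts, although the inducible Cre, a fusion with part of an oestrogen receptor, is in the labelled genotype of both Myh6 groups. The groups are named here as labelled, and the part of this difference in the Myh6 comparison was not tested. Replicate 1 of each group had 4224 to 7307 counts from Y-linked genes and the other hearts at most 2. The 12 cardiomyocyte markers were detected in all groups, and none was at 0. Their summed level was 27405 to 48693 CPM in EIIa-tg against 55821 to 67905 in its controls (1 marker higher and 2 lower by the test), and 11892 to 40950 in Myh6-tg against 43108 to 56416 (7 lower). The 9 fibroblast markers summed to 2850 to 4108 CPM in EIIa-tg against 1545 to 2272 (2 higher), and to 3334 to 8265 in Myh6-tg against 2067 to 2733 (4 higher). The 8 macrophage markers, all higher in EIIa-tg by the test, summed to 1015 to 1329 CPM there against 469 to 729. The 6 red cell and platelet markers were lower in sum in both models, at 221 to 1288 against 1553 to 2622 and at 1876 to 3460 against 5241 to 8164 (3 lower in Myh6-tg by the test), and 3 of 8 endothelial markers were lower in EIIa-tg. In whole hearts fewer cells of a type cannot be told apart from less RNA per cell, and the part of these shifts in the members' values was not tested.

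In control hearts the families differed widely in level. Per length, in FPKM (fragments scaled to gene length and library size), the highest member in EIIa-ctl was Hnrnpa2b1 at 147 ± 10.2 (SD, n = 3), followed by Hnrnpk at 78.4 ± 4.73 and Hnrnpab at 70.9 ± 8.46. Srsf2 was the highest SR protein gene at 54.6 ± 3.50 FPKM. Rbm3, a cold-inducible RNA-binding protein, stood at 52.7 ± 3.20, and the muscle regulators Rbm24 and Rbm38 at 49.5 ± 4.64 and 49.1 ± 4.74, 3 values that did not differ beyond their spread. Celf3, Celf6, Rbfox3, Rbm31y, Rbm44, Rbm46, Rbm8a2 and Srsf12 were too low to be tested in any comparison, with Rbm31y at 0 in every heart, which allows up to 3 counts a library. Celf5 and Rbm11 passed the filter on low counts in some comparisons. In all, 72 members were tested in EIIa-tg and 73 in Myh6-tg.

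In EIIa-tg hearts 5 members rose and none fell (edgeR, adjusted p under 0.05), and all 5 were hnRNP or SR protein genes. That is 6.94% of the 72 tested, below the 17.0% of all genes tested that were called, with 8.65% of genes higher and 8.30% lower. With DESeq2 8 members rose and 1, Rbm38, fell, where 3539 of all 16826 genes were called (1802 higher and 1737 lower). In edgeR 20 members had an unadjusted p under 0.05, against 34.9% of all genes. No member reached the study's threshold for a differentially expressed gene (DEG), an adjusted p under 0.01 with a log2 fold change of at least 1 either way, in edgeR or in DESeq2, the tool of the study. Over all genes edgeR gave 0 DEGs and DESeq2, run here, gave 836. The changes were small and mostly in 1 direction. The median log2 fold change of the members was 0.13 and that of all genes 0.02, 50 members were positive and 22 negative, and the median size of change was 0.17 against 0.30 for all genes. The 3 transgenic hearts lay above the 3 controls for 25 members (34.7%, against 20.3% of all genes) and below them for 3 (4.17%, against 20.8%), where 41.1% of all genes did not overlap in either direction. The count of calls moved when 1 heart was left out, for the members and for all genes. Without EIIa-ctl replicate 1 or 3, or EIIa-tg replicate 1 or 3, no member was called. Of all genes these fits called 0, 1, 0 and 133, in that order. Without EIIa-ctl replicate 2 there were 4 members and 1794 of all genes, and without EIIa-tg replicate 2 there were 15 and 4079.

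In Myh6-tg hearts 5 members rose and 1 fell. Those that rose were Rbm3, Srsf5, Rbm34, Hnrnpk and Rbm11, and Rbm38 fell. They are 8.22% of the 73 tested, again below the share of all genes, 18.3%, with 8.96% of genes higher and 9.38% lower. Rbm3 was a DEG, against 3.97% of all genes, and DESeq2 gave 3 members and 2137 of all genes. The spread of the members was wider than in EIIa-tg, with a median size of change of 0.35, and was below the 0.49 of all genes. The median log2 fold change was 0.21 for members and 0.03 for all genes. Transgenic hearts lay above all controls for 17 members (23.3%, against 20.6% of all genes) and below them for 11 (15.1%, against 19.6%), where 40.2% of all genes did not overlap. An unadjusted p under 0.05 was found for 16 members, against 34.1% of all genes. DESeq2 called 9 members and 3873 of all 17678 genes. Leaving out 1 heart gave between 1 member (without Myh6-ctl replicate 1 or Myh6-tg replicate 2) and 15 (without Myh6-tg replicate 1). Of all genes these fits called 798, 982 and 4269, in that order. The count of members was also 3 without Myh6-ctl replicate 2, and 2 without Myh6-ctl replicate 3 or Myh6-tg replicate 3. Of all genes these fits called 1755, 1637 and 969. Blocking on replicate number gave 5 member calls, 3 higher and 2 lower, and called 3204 of all genes.

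**Figure D1:**
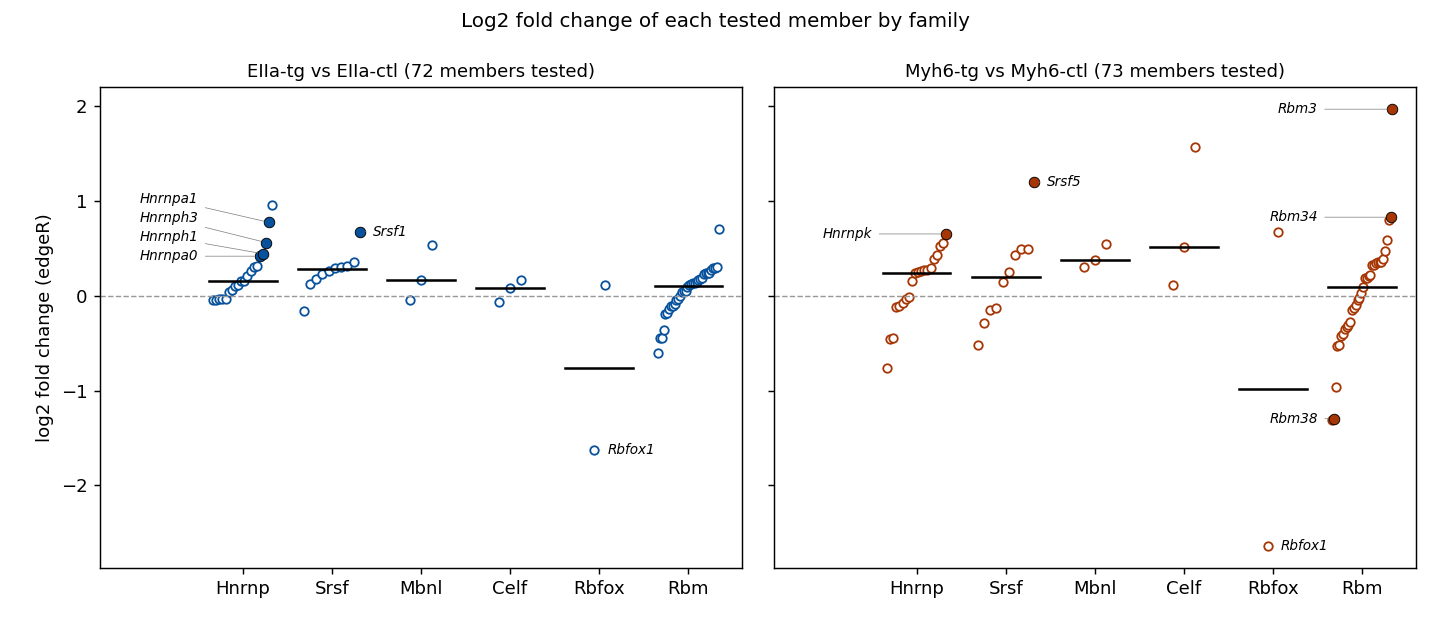
Log2 fold change (edgeR, y axis) of every tested member by family (x axis) in EIIa-tg against EIIa-ctl (left, 72 members) and in Myh6-tg against Myh6-ctl (right, 72 members, without Rbm11, whose controls are at the floor). Filled points passed an adjusted p of 0.05 and black lines are family medians; in EIIa-tg the 5 called genes are 4 Hnrnp and 1 Srsf, and in Myh6-tg Rbm3 (1.97) and Rbm38 (-1.29) lie far from their family's median of 0.10.

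Of the 20 hnRNP genes, 4 rose and none fell in EIIa-tg, a share of 20%. Of all genes 17.0% were called, 8.65% higher and 8.30% lower. Whether these shares differ was not tested. Hnrnpa1 encodes an abundant repressor of exon inclusion and lies on GRCm38 chr15:103240432-103246692. It stood at 73.1, 87.5 and 84.1 CPM in the EIIa-ctl hearts and at 152, 114 and 153 in EIIa-tg. All transgenic hearts were above all controls, and the log2 fold change was 0.77 ± 0.13 (SE, edgeR adjusted p = 0.017). Of the sequence of Hnrnpa1, 23.6% is shared over a read length with Gm10052, so some of its reads may be placed with either.

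Hnrnph1 and Hnrnph3, relatives that bind G-rich RNA and regulate exon and polyadenylation choice, rose together in EIIa-tg. Hnrnph1 had 75.3, 79.2 and 77.4 CPM in controls and 108, 94.4 and 114 in transgenic hearts (log2 fold change 0.44 ± 0.09, adjusted p = 0.023). Hnrnph3 had 21.2, 23.4 and 24.4 in controls and 36.7, 28.6 and 36.8 in transgenic hearts (0.56 ± 0.13, adjusted p = 0.026). The groups did not overlap for either gene. Hnrnpa0, which binds AU-rich RNA and was outside the naming rule, went from 89.2 to 94.9 CPM in controls to 104 to 138 in transgenic hearts (0.42 ± 0.11, adjusted p = 0.041).

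In Myh6-tg hearts the same 4 genes did not pass the test. Hnrnpa1 stood at 79.9, 91.6 and 98.4 CPM in Myh6-ctl and at 67.4, 169 and 161 in Myh6-tg, so that replicate 1 lay below and replicates 2 and 3 above all controls (adjusted p = 0.282). Hnrnph1 was at 89.5, 90.4 and 90.0 in controls and at 35.3, 81.7 and 79.9 in Myh6-tg, and Hnrnph3 at 24.9, 25.8 and 23.5 against 5.85, 16.4 and 21.3. Both were lower in every Myh6-tg heart than in any control, and above every control in EIIa-tg. The difference between models was -0.90 ± 0.34 for Hnrnph1 and -1.33 ± 0.47 for Hnrnph3 on the log2 scale and did not pass the test over all genes (adjusted p = 0.170 and 0.138). Without Myh6-tg replicate 1 it did, at -0.61 and -0.96 (adjusted p = 0.023 and 0.016).

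Hnrnpk, a poly(C)-binding hnRNP, was the hnRNP that rose in Myh6-tg. It stood at 223, 222 and 213 CPM in controls and at 291, 377 and 365 in Myh6-tg, without overlap, and passed the test at the threshold (log2 fold change 0.65 ± 0.19, adjusted p = 0.049). The block gave an adjusted p of 0.053, and 5 of the 6 fits that left out 1 heart did not call it. In EIIa hearts it ranged from 230 to 246 CPM in controls and from 228 to 266 in transgenic hearts, which overlapped. The difference between models was 0.61 ± 0.19 (adjusted p = 0.1001, and 0.017 in DESeq2).

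Hnrnpa2b1, the highest member per length in EIIa-ctl and a protein known to bind CGG repeat RNA, did not pass the test in either model. It had 265, 279 and 273 CPM in EIIa-ctl and 301, 320 and 328 in EIIa-tg, without overlap (log2 fold change 0.21 ± 0.09, adjusted p = 0.146). In Myh6-ctl it had 269, 322 and 282 and in Myh6-tg 138, 254 and 249, again without overlap but on the other side (-0.44 ± 0.27, adjusted p = 0.283). Hnrnpu, a nuclear scaffold protein, stayed between 112 and 163 CPM in the 12 hearts, with overlapping groups in both models. Hnrnpa3 had 7.42 CPM in EIIa-ctl replicate 1 and 53.9 to 127 in the other 11 hearts. Of its sequence 24.5% is shared with Gm5641, and its log2 fold change in EIIa-tg, 0.96 ± 0.61, rests on that 1 control. Without that heart it was 0.45, and it was not called with or without it. The 20 genes together held 2261 ± 118 CPM in EIIa-tg against 1949 ± 79 in its controls, and 2197 ± 396 in Myh6-tg against 1975 ± 65 (SD, n = 3).

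**Figure D2:**
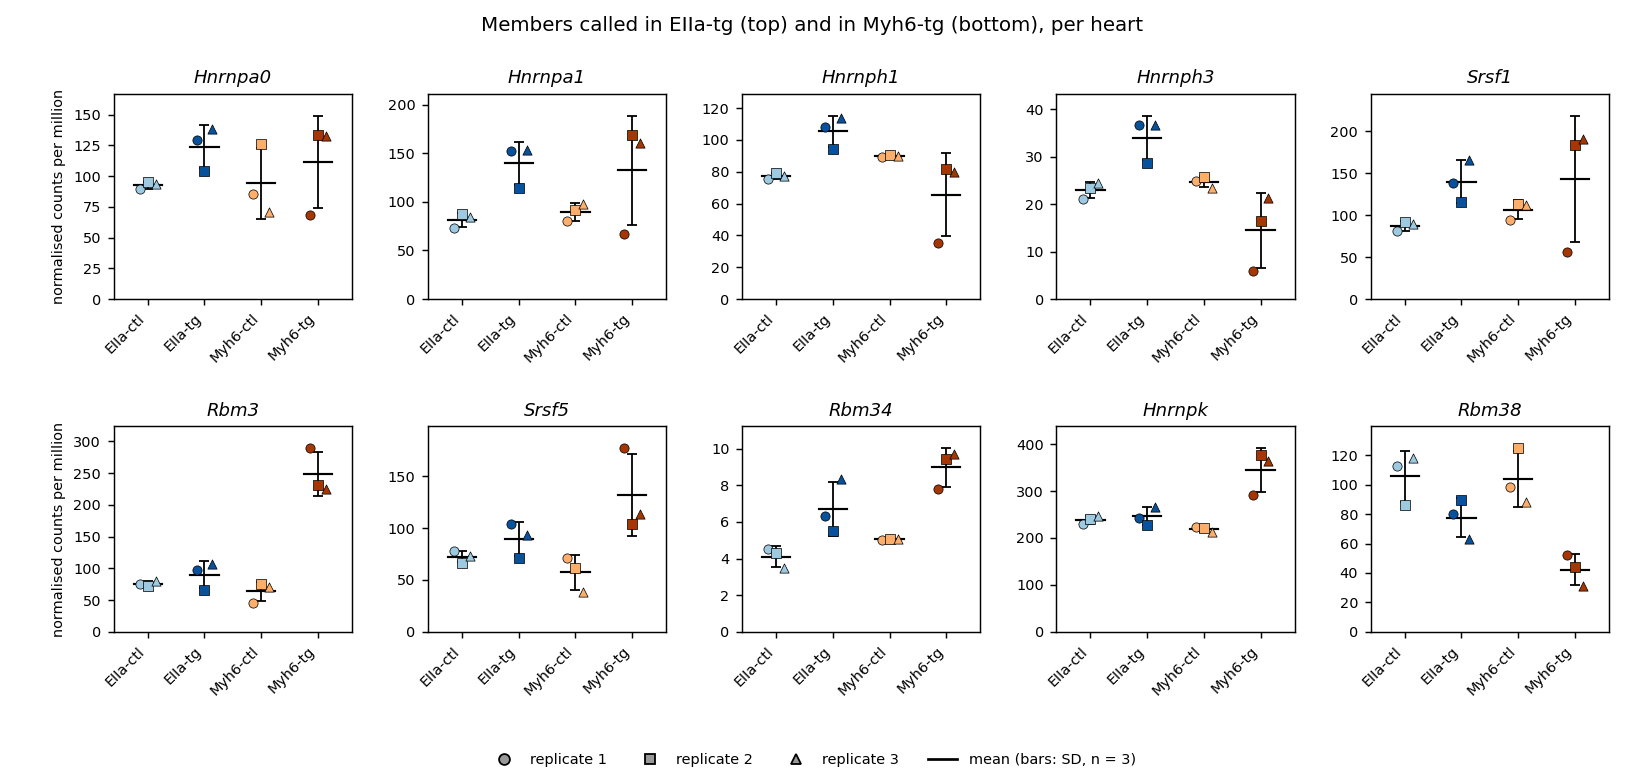
Normalised CPM (y axis, from 0) of 10 called members in each heart, by group (x axis), with the mean and SD of 3 hearts. In the top row, genes called in EIIa-tg, the EIIa-tg hearts lie above the EIIa-ctl hearts and Myh6-tg replicate 1 (circle) lies below replicates 2 and 3; in the bottom row, genes called in Myh6-tg, Rbm3 stands at 225 to 289 in Myh6-tg and at 107 or less elsewhere.

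Of the 10 SR protein genes tested, 1 rose and none fell in EIIa-tg. Of all genes 17.0% were called, 8.65% higher and 8.30% lower. The SR gene that rose was Srsf1, the founding member of the family (chr11:88047373-88053755). It stood at 80.6, 91.4 and 89.8 CPM in EIIa-ctl and at 139, 116 and 166 in EIIa-tg, without overlap (log2 fold change 0.68 ± 0.13, edgeR adjusted p = 0.021). Of the 10 SR genes tested, 9 had a positive log2 fold change, with a family median of 0.28, and for 6 of 10 the transgenic hearts lay above all controls, against 20.3% of all genes. Srsf6 was the exception at -0.16. Srsf3, a small SR protein that also exports mRNA, was at 90.2 to 93.8 CPM in controls and 97.4 to 123 in EIIa-tg (0.30 ± 0.10, adjusted p = 0.077), and Srsf10, an unusual SR protein that represses splicing when dephosphorylated, at 43.1 to 46.3 against 52.4 to 54.6 (0.26 ± 0.09, adjusted p = 0.067). Srsf2, which also promotes transcription elongation, overlapped between groups, at 108 to 118 and 111 to 142 CPM.

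In Myh6-tg the called SR gene was another one. Srsf5 (chr12:80945504-80950507), first known as a gene induced in regenerating liver, stood at 71.5, 61.6 and 38.7 CPM in Myh6-ctl and at 177, 104 and 113 in Myh6-tg. The groups did not overlap, and the log2 fold change was 1.198 ± 0.30 (adjusted p = 0.030, and 0.011 with the block). In 5 of the 6 fits that left out 1 heart it was not called, at an adjusted p of 0.056 to 0.078, and it was called without Myh6-tg replicate 1. In EIIa hearts it was at 66.6 to 77.5 in controls and 71.2 to 104 in transgenic hearts (0.30 ± 0.14, adjusted p = 0.165), and the difference between models of 0.90 ± 0.35 was not called (adjusted p = 0.180). Srsf1 in Myh6-ctl was at 93.7, 113 and 113 and in Myh6-tg at 56.5, 183 and 190, with 1 heart below and 2 above all controls (0.43 ± 0.41, adjusted p = 0.509). Srsf7 was at 43.2 to 51.9 in Myh6-ctl and at 18.1, 41.3 and 40.7 in Myh6-tg (-0.52 ± 0.31, adjusted p = 0.275). As a family the 10 genes ranged from -0.52 to 1.198 in Myh6-tg, with 6 positive and 4 negative.

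Among the RBM genes with counts above the floor in all groups, Rbm3 had the largest change in Myh6-tg (chrX:8138975-8145880). It encodes a glycine-rich protein that is induced by mild cold and by other stresses and is known to favour translation. Its level was 46.1, 74.7 and 69.9 CPM in Myh6-ctl hearts and 289, 232 and 225 in Myh6-tg hearts. In the younger mice it was 75.5, 72.6 and 79.4 without Cre and 97.1, 65.6 and 107 with EIIa-Cre. Every Myh6-tg heart was above the 9 others, while the EIIa groups overlapped. The log2 fold change was 1.97 ± 0.24 in Myh6-tg (edgeR adjusted p = 0.004, 3.91-fold) and 0.24 ± 0.16 in EIIa-tg (adjusted p = 0.331). The difference between models was 1.72 ± 0.30 (adjusted p = 0.011). Rbm3 was called in Myh6-tg in all 6 fits that left out 1 heart, with log2 fold changes from 1.78 to 2.10. Cirbp, the other cold-inducible RNA-binding protein and no member of these families, was at 19.5, 36.5 and 19.8 CPM in Myh6-ctl and at 60.8, 57.8 and 51.8 in Myh6-tg (1.17 ± 0.27, adjusted p = 0.024).

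Rbm38, a target of p53 that stabilises mRNA and regulates muscle splicing, moved the other way (chr2:173020498-173034734). It fell from 98.5, 125 and 88.1 CPM in Myh6-ctl to 52.3, 43.9 and 30.8 in Myh6-tg, a drop without overlap (log2 fold change -1.29 ± 0.24, adjusted p = 0.013), which 4 of the 6 fits without 1 heart also called. In EIIa hearts it was at 113, 85.99 and 118 in controls and 80.0, 89.4 and 63.4 in transgenic hearts, which overlapped (log2 fold change -0.45 ± 0.16, adjusted p = 0.089), and the difference between models was not called (-0.85 ± 0.30, adjusted p = 0.146).

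Rbm34 was low and rose in Myh6-tg. It stood at 5.02, 5.08 and 5.05 CPM in Myh6-ctl and at 7.77, 9.44 and 9.69 in Myh6-tg (log2 fold change 0.83 ± 0.21, adjusted p = 0.033). It was called in 1 of the 6 fits without 1 heart, that without Myh6-tg replicate 1. In EIIa it was at 3.48 to 4.53 in controls and 5.48 to 8.33 in transgenic hearts, also without overlap (0.70 ± 0.21, adjusted p = 0.052). It is 1 of 4 members whose transgenic hearts lay on the same side of all controls in both models (5.56%, against 18.1% of all genes, 8.15% above and 9.98% below). The others were the spliceosome protein gene Rbm22 and Rbm42, which were above, and Rbm4, which was below, and none of these 3 was called in either model. Over a read length, Rbm42 shares 69.0% of its sequence with Gm21982 and Rbm4 53.0% with Gm21992.

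Rbm11, a tissue-restricted splicing regulator outside the naming rule, was called on few counts. It had 2, 0 and 2 counts in Myh6-ctl, at or under the floor of 3, and 18, 16 and 19 in Myh6-tg (adjusted p = 0.039, and 0.080 with the block), and no fold is given. None of the 6 fits without 1 heart called it, with an adjusted p of 0.057 to 0.126. In EIIa it had 0, 2 and 3 counts in controls and 22, 6 and 5 in transgenic hearts, and was not tested. Rbm5 and Rbm10, related regulators of apoptosis genes, did not pass the test. Rbm5 was at 46.1 to 56.2 CPM in Myh6-ctl and at 39.1 to 40.8 in Myh6-tg, without overlap (log2 fold change -0.33 ± 0.16, adjusted p = 0.179), and at 46.6 to 53.9 against 52.0 to 53.8 in EIIa. Rbm10 was at 9.54 in Myh6-tg replicate 1 and between 22.2 and 27.1 in the other 11 hearts. Rbm12b1 and Rbm12b2, chosen after their values were seen, share 48.7% and 47.1% of their sequence over a read length with each other. Rbm12b1 was at 7.51 to 10.6 CPM in Myh6-ctl and 2.82 to 6.38 in Myh6-tg (-0.96 ± 0.34, adjusted p = 0.086) and was called with the block and by DESeq2.

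**Figure D3:**
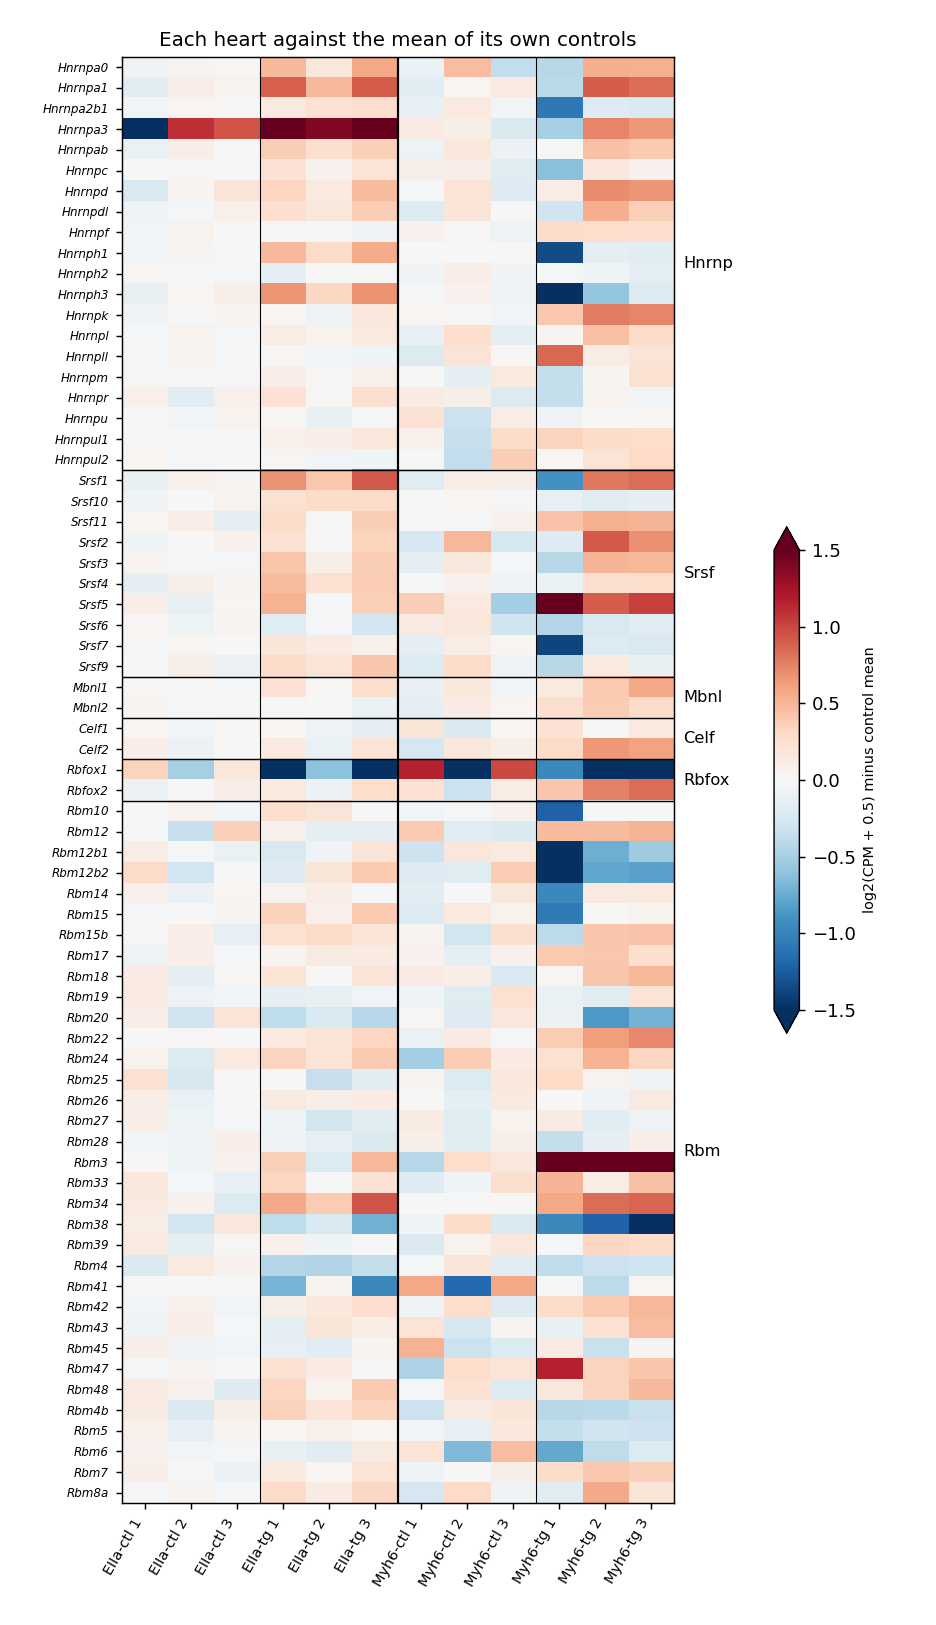
Colour gives log2(CPM + 0.5) of each of 70 members with a mean of at least 1 CPM (rows, by family) in each of the 12 hearts (columns), minus the mean of the 3 controls of its own model; the scale is capped at 1.5 either way. EIIa-tg hearts are mostly faintly red in the Hnrnp and Srsf rows, and Myh6-tg replicate 1 is blue in many rows where replicates 2 and 3 are red or near white. Measured against replicates 2 and 3, not against the controls, 18 of 70 members were at least 1.5 times lower in replicate 1.

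Myh6-tg replicate 1 stood apart from replicates 2 and 3 in the hnRNP and SR genes. Of the 70 members with a mean of at least 1 CPM, 18 (25.7%) were at least 1.5 times lower in replicate 1 than in the other 2 and 5 (7.14%) were at least 1.5 times higher, against 13.9% and 17.2% of all genes. The 18 include 8 of 20 Hnrnp and 4 of 10 Srsf genes. In the other groups at most 4 members differed that far in either direction. The same heart had a summed cardiomyocyte marker level of 40950 CPM against 15639 and 11892 in replicates 2 and 3, a fibroblast marker level of 3334 against 7876 and 8265, and a macrophage marker level of 2378 against 1072 and 1018, and it held the Y-linked counts. The part of these marker levels in the values of the members was not tested. A Y-linked covariate, which sets replicate 1 of both groups apart, gave 12 member calls in Myh6-tg, 8 higher and 4 lower. It called 3586 of all genes. Without Myh6-tg replicate 1, 15 members were called in Myh6-tg, 12 higher and 3 lower, which is 20.5% of those tested, against 26.7% of all genes in that fit. They include Hnrnpa1 (log2 fold change 0.87, adjusted p = 0.008) and Srsf1 (0.81, adjusted p = 0.011).

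Rbm38, which also regulates muscle splicing, was called lower in Myh6-tg, as given above. None of 8 other muscle splicing regulators passed the test in either model. These were Mbnl1, Mbnl2, Celf1, Celf2, Rbfox1, Rbfox2, Rbm20 and Rbm24. Mbnl1 and Mbnl2 are the antagonists of fetal splice forms that are lost to CUG repeats in myotonic dystrophy. Mbnl1 stood at 133 to 136 CPM in EIIa-ctl and 137 to 162 in EIIa-tg, and Mbnl2 at 193 to 201 against 182 to 196. Neither passed the test (adjusted p = 0.240 and 0.744). In Myh6-tg both had positive log2 fold changes, 0.38 ± 0.19 for Mbnl1 and 0.30 ± 0.18 for Mbnl2, with Mbnl2 at 197, 238 and 224 in controls and 260, 286 and 267 in transgenic hearts, but neither was called (adjusted p = 0.205 and 0.267). Mbnl3, used mainly in developing muscle, had 0 to 47 counts per heart and no call.

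Celf1 and Celf2, which promote fetal splice forms, were at like levels in the EIIa groups. Celf1 ranged from 61.8 to 83.5 CPM in the 12 hearts, with overlap in both models. Celf2 was at 44.5, 60.5 and 57.1 in Myh6-ctl and at 65.7, 84.7 and 81.9 in Myh6-tg, without overlap (log2 fold change 0.52 ± 0.19, adjusted p = 0.099, and 0.055 with the block). It was called without Myh6-tg replicate 1 (0.62, edgeR adjusted p = 0.039). Celf2 was also called with all 12 hearts in 1 fit, with the Y-linked covariate and on log2(FPKM + 1), but not with DESeq2 or any other alternative. Celf1 made up 64.3% ± 5.0 of the family's summed FPKM in EIIa-tg against 67.7% ± 1.4 in its controls, and 58.5% ± 3.1 in Myh6-tg against 62.9% ± 6.4 (SD, n = 3), with Celf2 nearly all of the rest.

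Rbfox1 and Rbfox2, which bind the same intronic element and activate muscle exons, are the members of their family found in heart. Rbfox1 (chr16:5885355-7411526) was at 27.7, 15.4 and 24.7 CPM in EIIa-ctl and 1.95, 14.2 and 5.66 in EIIa-tg, and at 15.5, 1.14 and 13.8 in Myh6-ctl and 3.18, 1.06 and 0.662 in Myh6-tg. The EIIa groups did not overlap, while Myh6-ctl replicate 2 lay among the Myh6-tg hearts. The log2 fold changes of -1.63 ± 0.58 and -2.64 ± 0.94 missed the threshold (edgeR adjusted p = 0.085 and 0.089). Without EIIa-tg replicate 2 the first was called (-2.58, adjusted p = 0.005), and without Myh6-ctl replicate 2 or Myh6-tg replicate 1 the second (-3.17 and -3.56, adjusted p = 0.035 and 0.042). Rbfox2 stood at 70.9, 48.9 and 65.8 in Myh6-ctl and at 82.0, 104 and 109 in Myh6-tg (0.67 ± 0.21, adjusted p = 0.060, and 0.037 in DESeq2). Rbfox1 accounted for 21.8% ± 15.3 of the summed FPKM of the family in EIIa-tg against 47.7% ± 7.5 in its controls, and for 3.9% ± 3.8 in Myh6-tg against 29.0% ± 17.4 (SD, n = 3).

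Rbm20 represses exons of titin and other sarcomere transcripts, and Rbm24 stabilises cardiac mRNA and promotes muscle exons. Rbm20 stood at 142, 107 and 152 CPM in EIIa-ctl and 101, 113 and 98.5 in EIIa-tg, and at 103, 89.5 and 116 in Myh6-ctl and 95.8, 56.2 and 62.1 in Myh6-tg. The groups overlapped in both models, and the log2 fold changes were -0.36 ± 0.14 and -0.53 ± 0.24 (adjusted p = 0.102 and 0.162). Leaving out 1 heart made either a call: without EIIa-ctl replicate 2 it was -0.50 (adjusted p = 0.038), and without Myh6-tg replicate 1 it was -0.80 (adjusted p = 0.015). Rbm24 was at 150 to 191 in EIIa-ctl and 199 to 228 in EIIa-tg, without overlap (0.30 ± 0.11, adjusted p = 0.098), and overlapped in the Myh6 groups (0.32 ± 0.25, adjusted p = 0.418). The summed cardiomyocyte markers were lower in each EIIa-tg and Myh6-tg heart than in any of its controls. Their part in the values of Rbm20 and Rbm24 was not tested.

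**Figure D4:**
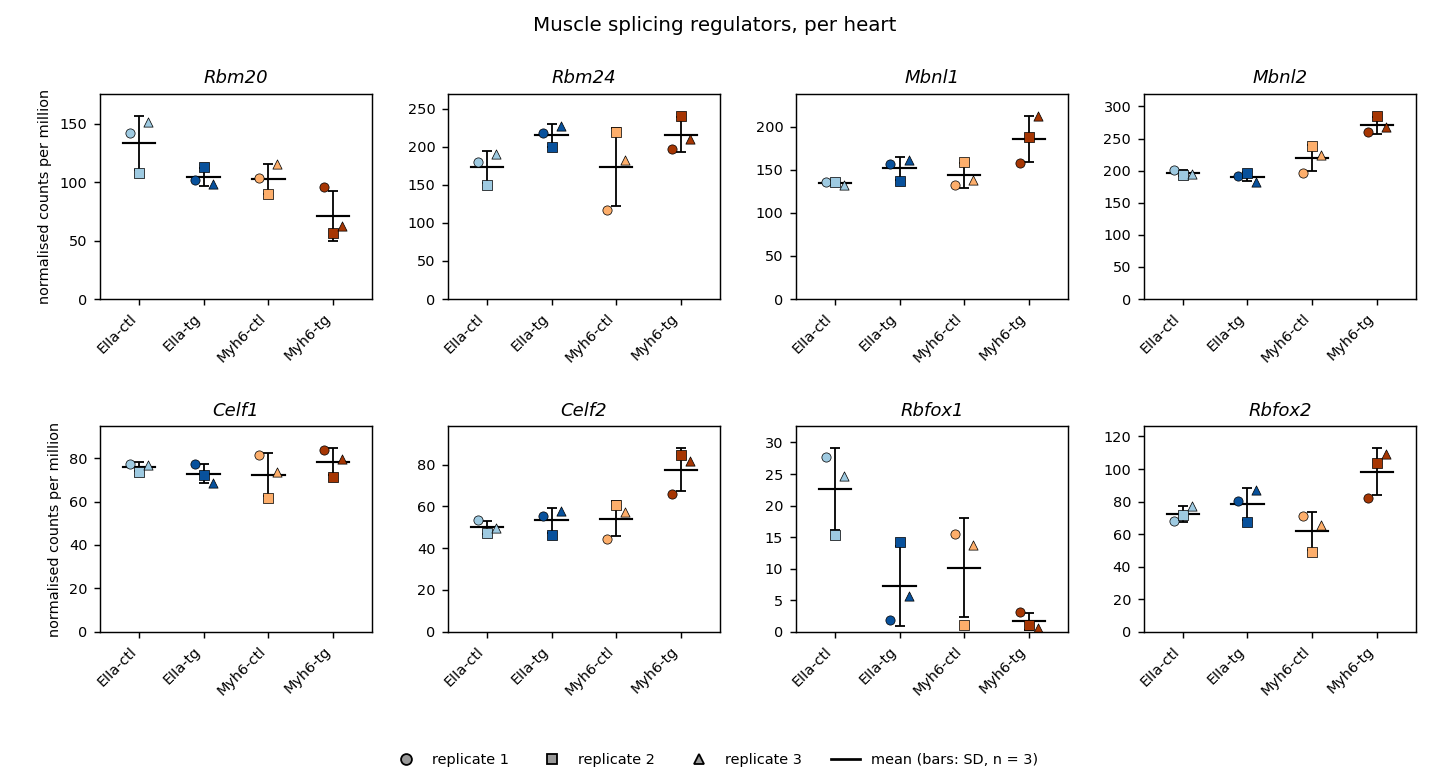
Normalised CPM (y axis, from 0) of 8 muscle splicing regulators in each heart, by group (x axis), with the mean and SD of 3 hearts. Rbfox1 is at 15.4 CPM or more in EIIa-ctl and at 14.2 or less in EIIa-tg, and Mbnl2, Celf2 and Rbfox2 are higher in each Myh6-tg heart than in any Myh6-ctl heart, but none of the 8 passed the test.

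The change in the 2 models was compared in all 12 hearts, as the change in Myh6-tg minus the change in EIIa-tg. Rbm3 was the member called, 1 of 74, against 3.92% of all genes (1.65% higher and 2.27% lower), and 13 members had an unadjusted p under 0.05, against 19.4%. By the stricter DEG threshold no member was called, against 0.622% of all genes. DESeq2 called 3 members, Rbm3, Hnrnpk and Srsf10, and 1396 of all 16311 genes. For 6 members the transgenic hearts lay above all controls in EIIa-tg and below all controls in Myh6-tg: Hnrnpa2b1, Hnrnph1, Hnrnph3, Srsf7, Srsf10 and Rbm4b. That is 8.33% of the 72 members tested in both models, against 0.778% of all genes. Their differences ran from -1.33 to -0.42 on the log2 scale, with adjusted p from 0.118 to 0.323.

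The controls of day 90 were compared with those of day 30. Age, corn oil and the inducible Cre cannot be told apart there, and the comparison shares its controls with the others. No member of 73 was called with edgeR, DESeq2 or limma. Of all genes edgeR called 0.0334% and DESeq2 429 of 16237. Limma called 4 on log2(FPKM + 1) and 3 on log2(FPKM + 0.1). An unadjusted p under 0.05 was found for Srsf10 (log2 fold change 0.31 ± 0.12) and Rbm15, an m6A writer subunit (0.50 ± 0.19), which is 2 of 73 members against 11.3% of all genes. Day 90 hearts lay above all day 30 hearts for 6 members (8.22%, against 8.73% of all genes) and below them for 1 (1.37%, against 8.71%), with 17.4% of all genes not overlapping.

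The partners and modifiers of these proteins were followed in lists of genes outside the families. Among 9 kinases that phosphorylate SR proteins, 2 were called in each model (22.2%, against 17.0% and 18.3% of all genes). Clk3 and Clk1 rose in EIIa-tg (log2 fold change 0.68 ± 0.13 and 0.58 ± 0.14, edgeR adjusted p = 0.020 and 0.030). In Myh6-tg Dyrk1a rose (0.74 ± 0.16) and Srpk3, the muscle SR protein kinase, fell by 1.11 ± 0.21. Srpk3 was at 21.6 to 24.3 CPM in EIIa-ctl and 27.1 to 32.7 in EIIa-tg, and at 19.2, 26.2 and 19.9 in Myh6-ctl and 11.6, 10.1 and 8.57 in Myh6-tg. Its change differed between the models by -1.47 ± 0.23 (adjusted p = 0.007). Of 16 SR-related proteins and cofactors tested, Tra2a and Tra2b rose in EIIa-tg (0.80 ± 0.11 and 0.39 ± 0.10) and Srrm4 fell by 1.3975 ± 0.23, and none was called in Myh6-tg, so that 18.75% were called in EIIa-tg.

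The calls in the core spliceosome were all rises. Of 40 genes, 5 rose and none fell in EIIa-tg, with Snrpa1 (0.71 ± 0.14) and Snrpb (0.40 ± 0.09) at the lowest p. A share of 5 of 40 is below the 17.0% of all genes called but above the 8.65% called higher, and 8.30% were called lower. In Myh6-tg 3 rose and none fell, with Prpf31 (0.70 ± 0.17) and Sf3b4 (0.81 ± 0.21) first. That is 7.5%, against 18.3% of all genes called, 8.96% higher and 9.38% lower. Whether these shares differ from those of all genes was not tested. The median of the list was 0.14 in both models. Of 33 other splicing regulators, 3 rose and 2 fell in EIIa-tg (15.2%, against 17.0%) and 5 rose and 2 fell in Myh6-tg (21.2%, against 18.3%), shares near those of all genes. In EIIa-tg these include Pcbp4 (0.51 ± 0.11) and Ptbp2, a neuronal PTB protein (0.75 ± 0.17), as well as Msi2 and Qk, which fell by 0.53 ± 0.10 and 0.54 ± 0.13. In Myh6-tg Khdrbs3, a STAR protein related to SAM68, fell from 44.9, 35.9 and 31.2 CPM to 11.96, 12.95 and 12.6 (by 1.58 ± 0.19, adjusted p = 0.004), more than in EIIa-tg (difference -1.26 ± 0.21, adjusted p = 0.009). Nova2 also fell in Myh6-tg, by 0.81 ± 0.22, and Esrp2 and Fubp3 rose (2.32 ± 0.49 and 0.86 ± 0.19), Esrp2 from at most 0.414 CPM.

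Of 13 other proteins tied to CGG repeats, such as those that bind them or are made from them, 1 fell in EIIa-tg (7.69%, against 17.0% of all genes) and 1 rose and 2 fell in Myh6-tg (23.1%, against 18.3%). Drosha, the nuclear enzyme of microRNA processing, fell in both, by 0.59 ± 0.12 and 0.65 ± 0.18. In Myh6-tg Fmr1, the gene of the fragile X protein, rose from 15.4 to 18.3 CPM in controls to 26.2 to 27.4 (0.66 ± 0.16, adjusted p = 0.027), and the helicase gene Ddx17 fell by 0.67 ± 0.18, with a difference between models of -0.81 ± 0.18 (adjusted p = 0.031).

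Of 24 heart transcripts known to be alternatively spliced, 1 rose and 9 fell in EIIa-tg, where 8.30% of all genes were lower, and 2 rose and 2 fell in Myh6-tg (16.7%, against 18.3% of all genes called). Ryr2, among the 9 that fell, is itself in the list of cardiomyocyte markers. The summed cardiomyocyte markers were also lower in EIIa-tg, at 27405 to 48693 CPM against 55821 to 67905, and their part in these falls was not tested. These are levels of whole genes, and splice forms were not measured. Pdlim3 rose in both models (2.66 ± 0.41 and 3.13 ± 0.60). It was at 11.5, 21.5 and 10.002 CPM in EIIa-ctl hearts and 83.5, 49.2 and 140.01 in EIIa-tg hearts, and at 13.4, 56.8 and 33.4 in Myh6-ctl hearts and 139, 409.75 and 359 in Myh6-tg hearts. Fhod3, a sarcomere formin, fell in EIIa-tg by 1.05 ± 0.23. In Myh6-tg Pdlim5 rose (1.16 ± 0.24), and Cacna1s and Clcn1 fell to at most 0.470 and 0.235 CPM (adjusted p = 0.015 and 0.030). In the comparison of the controls none of the 6 lists had a call.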

How the data were processed

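Heart RNA of 12 mice was sequenced with 150-base paired-end reads and, per the study's methods, aligned to GRCm38 with HISAT2. The submitters' processing notes name HISAT2 2.0.4, StringTie 2.2.1 and DESeq2 with the builds mm10 and GRCm39. The counting program, its strand setting and the annotation are not given in the sources used here. The authors deposited whole-number read counts per gene, without normalisation, and FPKM values, which the authors scaled to gene length and library size. Each table has 25171 loci. The transgene was not analysed here. Positions came from GENCODE M21. Genotype labels of EIIa-tg replicates 2 and 3 are written differently from replicate 1, and groups follow the sample titles.

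Counts were tested in R 4.3.3 with edgeR 4.0.16 (filterByExpr, TMM, glmQLFit, glmQLFTest) over the whole table in the 6 hearts of each comparison, and in all 12 for the difference between models, with Benjamini-Hochberg adjustment. A call is an adjusted p under 0.05. CPM values were normalised by TMM over the 12 hearts. The floor was 3 counts a library, which covers counting error only. Alternatives were DESeq2 1.42.0, RLE factors, other filters on low counts, all 12 hearts in 1 fit, a replicate block, removal of mitochondrial genes, a Y-linked covariate, limma 3.58.1 on log2(FPKM + 1) and log2(FPKM + 0.1), and each heart left out. The scripts were tested on simulated data. The main fits took the hearts as unpaired, and pairs of the same number entered only in the replicate block. In the Myh6 groups same-numbered hearts deviated together (correlations 0.270, 0.212 and 0.229). This pairing comes from the data, not from the labels. Replicate 1 of each group also held the Y-linked counts, and the part of that in these correlations was not tested.

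The naming rule took 22 listed members, every DEG, and among called members averaging 5 CPM or more up to 4 with the largest change each way, and from the gene lists the 2 called genes with the lowest p in each direction. One gene that the rule takes from the lists is not reported here. Other genes are named after their values were seen. The members and lists were chosen with earlier results of these data known.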

Additional observations from a re-analysis of the deposited data

Results flagged for a closer look

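The change of Rbm3 differed between the 2 models. The change in Myh6-tg was larger than that in EIIa-tg by 1.72 on the log2 scale (edgeR adjusted p = 0.011), and in all 12 fits that left out 1 heart it remained called, with values from 1.53 to 1.86. All 3 Myh6-tg hearts, at 225 to 289 CPM, were above the other 9 hearts. Groups of 3 hearts are too small for a test of single outlying hearts, so none was run.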

How the results depend on the processing

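No called value changed sign under any alternative. In EIIa-tg the count of 5 called members was 9 with DESeq2, 8 with a filter of at least 1 CPM in at least 3 hearts, 20 on log2(FPKM + 1), 3 on log2(FPKM + 0.1) and 0 with all 12 hearts in 1 fit. Over all genes the count of 2527 was 3539, 2582, 2869, 1306 and 227, in the same order. With the replicate block 0 members and 1 of all genes were called, where same-numbered EIIa hearts did not deviate together (correlations 0.124, -0.116 and -0.098). Leaving out 1 heart gave 0 to 15 members and 0 to 4079 of all genes. In Myh6-tg the count of 6 was 18 with all 12 hearts in 1 fit, 12 with the Y-linked covariate, 21 on log2(FPKM + 1), 13 on log2(FPKM + 0.1) and 1 to 15 without 1 heart. Over all genes the count of 2805 was 5049, 3586, 4233 and 3572, in the same order, and 798 to 4269 without 1 heart. With the replicate block 5 members and 3204 of all genes were called. Of these 5, 4 are among the 6: Hnrnpk and Rbm11 lost the call and Rbm12b1 gained it, and the block changed no other call of a member there. For the difference between models the count of 1 was 3 with DESeq2 and 1 to 5 without 1 heart, 5 being without Myh6-tg replicate 1. Over all genes the count of 624 was 1396 with DESeq2 and 293 to 1727 without 1 heart, 1727 being without Myh6-tg replicate 1. The comparison of the controls gave 0 members under every alternative run, where 3 to 429 of all genes were called. On the log2(FPKM + 1) scale the median of all genes moved to 0.13 in EIIa-tg and 0.27 in Myh6-tg, and those of the members to 0.27 and 0.48. Of 144 family medians under other settings, 33 moved by more than their spread. Why these counts moved was not tested. The 3 hearts a group limit the precision, and a member that missed the threshold is not shown to be unchanged.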

Other observations

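Hnrnpa3 in EIIa-ctl replicate 1 had 326 counts, against 2280 to 6346 in the other 11 hearts. The same heart was also the lowest of the 12 for this gene in the deposited FPKM values, by a smaller ratio.

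Rbm12 shares 32.6% of its sequence over a read length with the locus Gm28036, which was at 0 to 9.77 CPM in the EIIa hearts and at 0.235 to 29.2 in the Myh6 hearts, while Rbm12 itself was at 9.72 to 19.1 in all 12.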
